A study of Mus musculus with 4 samples.

Results

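The genes described here encode the protein subunits of the mitochondrial ribosome. They were taken as every probe set with a single gene symbol that starts with Mrpl or Mrps followed by a number, which gave 80 probe sets of 71 genes among the 22180 genes with a single-symbol probe set. Their transcripts were measured in mouse bone marrow-derived macrophages on Affymetrix whole-transcript arrays, a single one for each group, to which a pool of RNA from 3 samples was applied. The 4 groups were Hilpda knockout cells of HilpdaΔMΦ mice and wild-type cells of their Hilpdaflox/flox littermates, each exposed for 24 h or for 12 h to a 1:2 mixture of palmitate and oleate at 600 µM, complexed with albumin. The floxed allele is thus also carried by the wild-type cells, and the sources used here do not name the promoter that drives the deletion. Mice were 8 to 12 weeks old, and marrow cells had been cultured for 7 days with L929-conditioned medium, which supplies CSF1. No group without fatty acids was used here. With pooled RNA and 1 array a group there is no replicate error, so a difference at 1 time or within 1 genotype is a measured value with no test.

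Mitochondria keep their own ribosome, which translates only the few messages of mitochondrial DNA, all of them subunits of the respiratory chain and ATP synthase. Its ribosomal RNAs are made in the organelle, whereas every protein subunit is encoded in the nucleus, made in the cytosol and imported. Some of these proteins are counterparts of bacterial ribosomal proteins, and others were added in mitochondria. The large subunit (Mrpl) forms the peptide bond and holds the exit tunnel, and the small subunit (Mrps) decodes the message. The symbols follow the structure with few exceptions: Mrps30 and Mrps18a sit in the large subunit of the mammalian mitochondrial ribosome, and Mrps36 is now known as a component of the oxoglutarate dehydrogenase complex.

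All differences are of log2 values. The genotype difference subtracts wild type from knockout at one time, and the time difference subtracts the 12 h from the 24 h value of one genotype. Genes with a mean log2 level of at least 2.44, the 40th percentile, were kept, which left 13308 genes, among them 70 of the 71 members. Mrpl27, with a mean of 2.44, lay just inside this limit, and Mrps36, with 2.31, just outside. The mean levels of the 70 members ran from 2.44 to 8.25 with a median of 6.16, and 65 of them were also at or above the 60th percentile. Hilpda, the targeted gene, was at 5.27 in knockout and 5.47 in wild type at 24 h, and at 5.41 and 5.93 in the same order at 12 h. Its genotype differences of -0.20 and -0.51 were thus under 1.5-fold, and whether its probe set lies in the deleted part was not determined here. All 8 macrophage markers were kept, with a mean level of at least 10.67 on every array. At 24 h 7 of these 8 were lower in knockout, with a median difference of -0.27, against 0.01 at 12 h. Of 8 stromal markers 6 were kept, and all 6 were lower in knockout at both times, with a median difference of -0.68 at 24 h and of -0.51 at 12 h. None of 7 neutrophil markers was kept, and at most 2 were kept of each list for B, T or NK, dendritic, erythroid and mast cells.

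At 24 h, transcripts of the mitochondrial ribosome were slightly higher in knockout than in wild-type macrophages, and it was the wild-type 24 h array that was low. This holds for the probe set used for each gene, the one with the highest mean. The genotype difference at 24 h was above 0 for 58 of the 70 members, where 50.9% of all genes kept were above 0. Its median over members was 0.17, against 0.01 over all genes kept. At 12 h, 36 of the 70 members were above 0, where 50.6% of all genes were, and the median was 0.01 over members and 0.00 over all genes. In wild type the time difference was below 0 for 55 of 70 members, where 50.8% of all genes were below 0, with a median of -0.16. In knockout 37 of 70 members were above 0, where 50.4% of all genes were, and 33 below, where 49.5% were, and the median was 0.00. The genotype difference at 24 h and the time difference in wild type share the wild-type 24 h array, so they are 2 views of the same values. Without that array the genotype difference at 12 h and the time difference in knockout remain, with medians of 0.01 and 0.00 over members.

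The level in the wild-type 24 h array was the lowest of the 4 for 49 members (70% of them), whereas it was the lowest for 30.2% of all genes kept. It was the highest of the 4 for 5 members (7.14%), against 28.6% of all genes. Relative to the mean of the other arrays, the members in the wild-type 24 h array had a median of -0.15, and all genes kept one of -0.01. This array also stood further from the others over all genes, with an SD of 0.31 over genes for that offset, where the other arrays had 0.24 to 0.25. The macrophage markers were higher and the members lower in this array, and the mean level of the 8 stromal markers was highest there, at 5.14, with 4.65 in knockout at 24 h and 4.77 in wild type at 12 h. The part of these in the result was not tested. In bulk RNA, fewer cells of a type and less RNA per cell cannot be told apart.

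**Figure D1:**
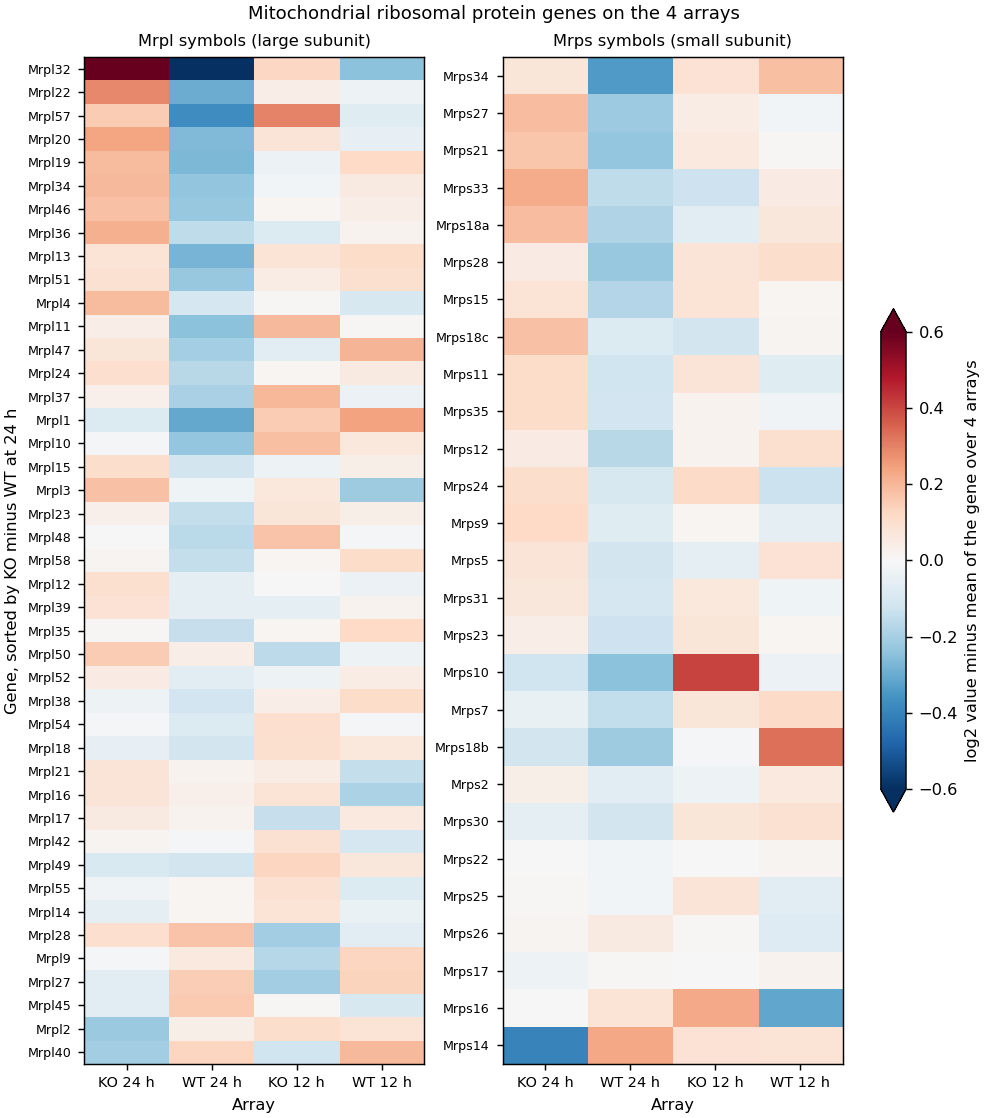
Heat map of the 70 genes kept (rows, sorted by the genotype difference at 24 h) on the 4 arrays (columns), with large-subunit symbols on the left and small-subunit symbols on the right. Colour is the log2 value minus the gene's mean over the 4 arrays, and the scale ends at 0.6 in either direction. The WT 24 h column is blue, that is low, for most genes in both panels.

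On the probe set used for each gene, the differences were small and shared by many members rather than carried by a few. The 9 second probe sets of members did not share them, as given below. At 24 h the quartiles of the members' genotype differences were 0.05 and 0.28, and 30 of the 70 were at or above 0.20, against 5 at or below -0.20. At 12 h the quartiles were -0.09 and 0.12, with 8 members at or above 0.20 and 5 at or below -0.20. By the rule of at least 1.5-fold, 2 members were higher in knockout at 24 h (2.98% of all genes were) and 1 was lower (3.51% of all genes). In either direction 6.49% of all genes were past 1.5-fold, so the count of 3 in 70 does not set the members apart. At 12 h 0 members were past 1.5-fold, where 1.5% of all genes were higher and 1.4% lower, or 2.9% in either direction. Leaving out the 3 members past 1.5-fold, the median at 24 h was 0.16, with 56 of 67 above 0.

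Mrpl32 had the largest genotype difference of the family at 24 h. It encodes a zinc-binding protein of the large subunit with a bacterial relative, which the m-AAA protease of the inner membrane trims after import before it joins the ribosome, as known from yeast and mouse. Its log2 level was 5.76 in knockout and 4.22 in wild type at 24 h, and 5.05 in knockout and 4.68 in wild type at 12 h. The knockout array was therefore the higher one at both times, and the 24 h arrays were the highest and the lowest of the 4. The difference was 1.54 or 2.92-fold at 24 h, where 4 of the 13308 genes were as high or higher, and 0.37 at 12 h. Between the times Mrpl32 was 0.71 higher in knockout and 0.46 lower in wild type. On the probe set used for each gene it was the single member past 1.5-fold in a time comparison. In knockout 3.06% of all genes were higher, 3.25% lower and 6.31% either. On those probe sets no member was past 1.5-fold with time in wild type, where 4.71% of all genes were higher, 4.01% lower and 8.72% either. Second probe sets of Mrps16, Mrps17 and Mrps18c did pass with time and are given below. The m-AAA protease genes that process MRPL32 had small genotype differences, from -0.02 to 0.21 at 24 h and from 0.04 to 0.12 at 12 h over Afg3l1, Afg3l2 and Spg7.

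Mrpl22, a protein of the rim of the peptide exit tunnel, was the other member higher by 1.5-fold at 24 h. It stood at 5.01 in knockout and 4.42 in wild type at 24 h, and at 4.76 and 4.69 in that order at 12 h. Its difference of 0.59 at 24 h was 1.5-fold and so lay on the limit itself, and it was 0.56 after centring on the median. Mrps14, a protein of the head of the small subunit, was the member lower by 1.5-fold at 24 h. Its level was 2.87 in knockout and 3.51 in wild type at 24 h, a difference of -0.63, and 3.36 in both genotypes at 12 h. It is the knockout 24 h array that was low for this dim gene, the other 3 being within 0.15 of each other.

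The promoters of these 3 genes, the ones past 1.5-fold at 24 h, are shown so that they can be compared at the level of sequence. They are the 250 bases before the annotated start in RefSeq on GRCm38.p6, 5′ to 3′ along the gene. Capitals mark a match to the NRF1 motif, which is GCGCA and GCGC with any 1 base between them. NRF1, GABP and YY1 are transcription factors known for acting at promoters of nuclear genes of mitochondria. The Mrpl32 promoter lies at chr13:14613038-14613287 on the minus strand, that of Mrpl22 at chr11:58171414-58171663 on the plus strand and that of Mrps14 at chr1:160194965-160195214 on the plus strand.
Mrpl32: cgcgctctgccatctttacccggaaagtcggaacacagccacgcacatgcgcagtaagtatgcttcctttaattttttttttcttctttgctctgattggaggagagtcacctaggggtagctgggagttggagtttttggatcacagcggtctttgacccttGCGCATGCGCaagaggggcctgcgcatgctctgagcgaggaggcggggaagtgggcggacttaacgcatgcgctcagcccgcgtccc
Mrpl22: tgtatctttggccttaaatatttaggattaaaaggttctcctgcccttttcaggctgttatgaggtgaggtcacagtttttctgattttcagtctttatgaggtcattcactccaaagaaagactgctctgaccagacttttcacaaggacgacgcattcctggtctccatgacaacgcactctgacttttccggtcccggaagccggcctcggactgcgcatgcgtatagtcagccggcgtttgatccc
Mrps14: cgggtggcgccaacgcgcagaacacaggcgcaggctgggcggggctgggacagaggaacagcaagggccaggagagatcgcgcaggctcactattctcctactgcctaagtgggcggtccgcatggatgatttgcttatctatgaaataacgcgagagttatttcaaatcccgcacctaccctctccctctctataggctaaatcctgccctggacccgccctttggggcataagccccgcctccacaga
Mrpl32 held 1 match, starting 87 bases before the annotated start, and the other two held none. Entries were found for 62 of the 71 members, each with the 250 bases before and 50 bases after the start. Without an entry were Mrpl4, Mrpl13, Mrpl15, Mrpl19, Mrpl38, Mrpl54, Mrps28, Mrps34 and Mrps35. On either strand, the NRF1 motif was present for 11 of the 62 members (17.7%), against 5.19% of all 27025 genes with an entry and 10.7% of the genes kept. The GABP motif CCGGAAGT was present for 10 members (16.1%), against 4.31% of all genes and 8.45% of those kept. The YY1 motif AAGATGGCG was present for 8 members (12.9%), against 1.64% and 3.29%, and the E-box CACGTG for 5 (8.06%), against 8.09% and 11.4%. Matches of different motifs that overlapped at their ends were counted for each. The 27 members kept that had any of the first 3 motifs had a median genotype difference of 0.16 at 24 h, with 22 above 0. The 34 kept with none of them had a median of 0.14, with 27 above 0. A match is a run of letters and not a measured binding site.

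The medians of the large and small subunits were close to each other in all 4 comparisons. The 43 Mrpl genes kept had a median genotype difference at 24 h of 0.16, with 35 above 0, and the 27 Mrps genes one of 0.19, with 23 above 0. The medians of the 2 subunits differed by -0.03 at 24 h and by 0.02 at 12 h, large minus small, whereas their means differed by 0.03 and by -0.01, so the sign of the gap was not stable. For time they differed by 0.03 in knockout and by -0.02 in wild type, where the Mrpl median was -0.16 and the Mrps median -0.14. Assigning genes by structure, with Mrps30 and Mrps18a in the large subunit, gave gaps of -0.03 at 24 h and -0.06 at 12 h. Mrps18a itself was 0.37 higher and Mrps30 0.05 higher in knockout at 24 h. Members of the same array are not replicates, so the gap between the subunits has no test. The wild-type 24 h array was the lowest for 29 of the 43 Mrpl genes and for 20 of the 27 Mrps genes. Members were also split by the systematic names of ribosomal proteins. The 43 members named as the counterpart of a bacterial protein had a median of 0.20 at 24 h, with 34 above 0, and the 27 with a mitochondrial name one of 0.15, with 24 above 0. Mrps18a and Mrps18b, paralogs of Mrps18c, are among the 27 by their names although they are related to a bacterial protein.

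**Figure D2:**
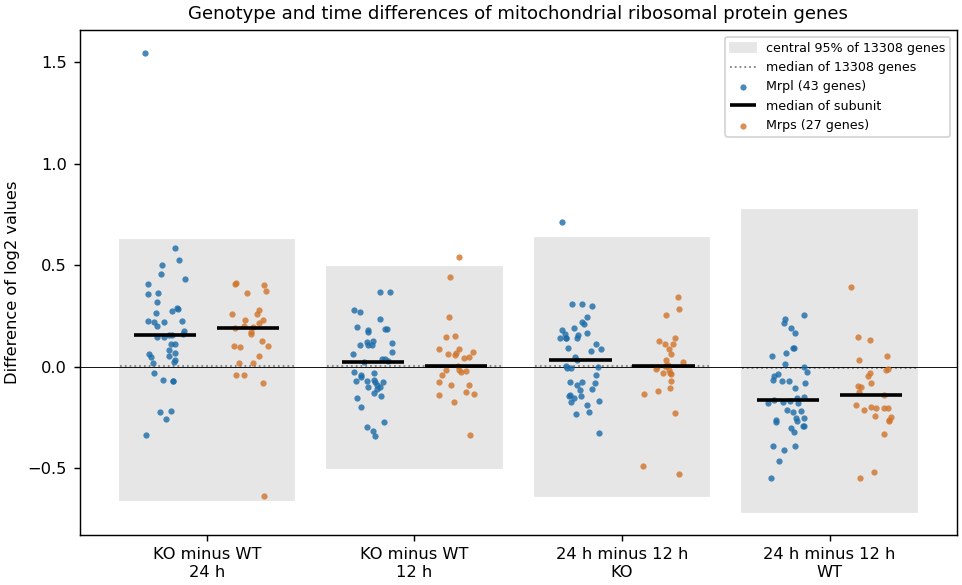
Difference of log2 values (y axis) for each Mrpl gene (blue, 43) and Mrps gene (orange, 27) in the 4 comparisons (x axis). Black bars are the medians of the subunits, grey boxes the central 95% of the 13308 genes and dotted lines their median. Both subunit medians lie above 0 for KO minus WT at 24 h and below 0 for 24 h minus 12 h in WT, and Mrpl32 at 1.54 stands alone at the top.

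Within the large subunit, the proteins of the stalk, which recruits translation factors, were all above 0 in both genotype comparisons on the probe set used for each gene. Mrpl10 carries copies of Mrpl12, and Mrpl11 lies at the base of the stalk. Their genotype differences at 24 h were 0.22, 0.16 and 0.28 in that order, and at 12 h 0.12, 0.04 and 0.19. The second probe set of Mrpl10 gave -0.39 at 24 h and -0.05 at 12 h, and that of Mrpl12 gave 0.12 and 0.43. Mrpl11 was at 5.78 in knockout and 5.50 in wild type at 24 h, and at 5.94 and 5.75 in that order at 12 h. Of 6 proteins around the exit tunnel 5 were above 0 at 24 h, with a median of 0.22, and 3 at 12 h. The exception at 24 h was Mrpl45, which in human cells anchors the ribosome to the inner membrane, at -0.22. It was at 6.15 in knockout and 6.37 in wild type at 24 h, with 6.22 and 6.12 in that order at 12 h, so that here the wild-type 24 h array was the highest. Mrpl24, another tunnel protein, was at 8.29 in knockout and 8.03 in wild type at 24 h, and at 8.21 and 8.25 at 12 h.

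The central protuberance, the crown of the large subunit that faces the small one, was mixed. Of the 8 members kept that were assigned to it here, 5 were above 0 at 24 h and 3 at 12 h. The medians were 0.07 and -0.05. Mrpl40 was lower in knockout at both times, at 5.08 against 5.42 in wild type at 24 h and 5.17 against 5.48 at 12 h, with differences of -0.34 and -0.32. The knockout arrays were thus the lower pair, and the share of all genes with such a split was not counted. Mrpl46, in contrast, was at 5.24 in knockout and 4.84 in wild type at 24 h, and at 5.08 and 5.11 in that order at 12 h. Mrpl27 was at 2.37 in knockout and 2.59 in wild type at 24 h, and at 2.23 and 2.58 in that order at 12 h. Its difference of -0.34 at 12 h was the lowest of the family at that time, on a probe set at the level limit. Mrps36, just under that limit, was at 2.48 in knockout and 2.01 in wild type at 24 h, and at 2.45 and 2.31 at 12 h. Mrpl2 and Mrpl3, whose bacterial relatives lie close to the site of peptide bond formation, went opposite ways at 24 h, at -0.26 and 0.20. For Mrpl2 the knockout 24 h array was the low one, at 5.97 beside 6.23 in wild type at 24 h and 6.30 and 6.27 in knockout and wild type at 12 h.

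Other large-subunit genes with the wild-type 24 h array low included Mrpl57, Mrpl19, Mrpl20, Mrpl34 and Mrpl1. Mrpl57, a subunit with a mitochondrial name, was higher in knockout at both times, at 5.46 against 4.93 in wild type at 24 h and 5.60 against 5.23 at 12 h. The differences were 0.53 and 0.37. Mrpl20 was at 5.65 in knockout and 5.15 in wild type at 24 h, and at 5.49 and 5.36 in that order at 12 h. Mrpl34 had a difference of 0.43 at 24 h and of -0.07 at 12 h, and Mrpl19 one of 0.46 and of -0.15. Mrpl1, whose bacterial relative forms a mobile stalk beside the exit site of tRNA, had the lowest time difference of the family in wild type, at -0.55. Its levels were 6.15 in knockout and 5.93 in wild type at 24 h, below the 6.39 and 6.48 at 12 h, so it was lower at 24 h in both genotypes, by 0.23 in knockout. Mrpl28 went the other way, with 5.31 in knockout and 5.38 in wild type at 24 h higher than at 12 h by 0.31 in knockout and by 0.24 in wild type. Mrpl50 was likewise higher at 24 h, by 0.31 in knockout and by 0.07 in wild type. Mrpl58, a peptidyl-tRNA hydrolase that frees stalled mitochondrial ribosomes, had a genotype difference of 0.16 at 24 h and of -0.10 at 12 h.

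Among small-subunit genes, 8 members were assigned here to the body and platform. At 24 h 6 of these 8 were above 0, with a median of 0.22, and at 12 h 4 of 8. Mrps21 was at 6.17 in knockout and 5.77 in wild type at 24 h, and at 6.06 and 6.01 in that order at 12 h. Mrps12, which in bacteria lies at the decoding site, was at 4.65 in knockout and 4.43 in wild type at 24 h, and at 4.62 and 4.70 at 12 h. For both genes the wild-type 24 h array was the lowest. Mrps15, of the platform, had levels of 8.33 in knockout and 8.07 in wild type at 24 h, and of 8.33 and 8.26 at 12 h. Of the 5 members assigned to the head here, 4 were above 0 at 24 h and 4 at 12 h, the exception at 24 h being Mrps14. Mrps10, also of the head, was at 5.34 in knockout and 5.21 in wild type at 24 h, and at 5.86 and 5.42 in that order at 12 h, so that the knockout 12 h array was the high one. Its genotype difference was 0.13 at 24 h and 0.44 at 12 h, and in knockout it was 0.53 lower at 24 h than at 12 h.

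Among the 10 proteins of the small subunit with a mitochondrial name 9 were above 0 at 24 h. Mrps34, needed for a stable small ribosomal RNA, was at 5.80 in knockout and 5.39 in wild type at 24 h, and at 5.82 and 5.91 in that order at 12 h, so 3 arrays were close and the wild-type 24 h array lay below them. A probe set shared by Mrps34 and Nme3 did not show this. It read 7.04 in knockout and 6.86 in wild type at 24 h, and 6.62 and 6.75 in that order at 12 h. Mrps27, a pentatricopeptide repeat protein, was 0.41 higher in knockout at 24 h and 0.06 higher at 12 h. Mrps33 was at 6.19 in knockout and 5.81 in wild type at 24 h, and at 5.84 and 6.02 in that order at 12 h, so that its sign differed between the times. Mrps22, in which mutations cause mitochondrial disease in humans, was nearly level, between 5.83 and 5.86 on all arrays.

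**Figure D3:**
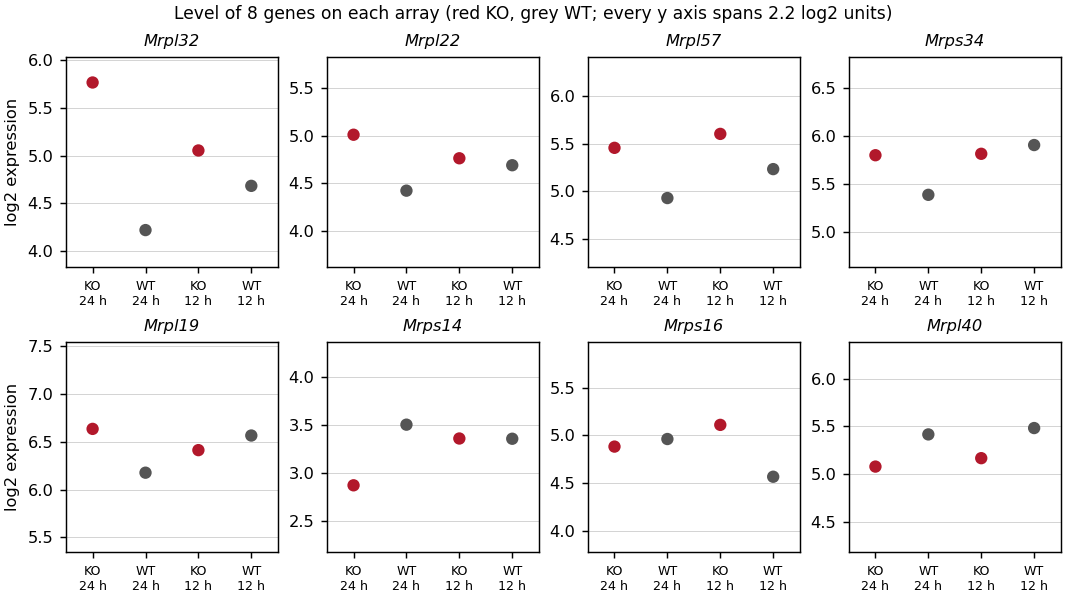
Log2 expression (y axis, each spanning 2.2 units) of 8 genes on the KO 24 h, WT 24 h, KO 12 h and WT 12 h arrays, with 1 point per array, red for KO and grey for WT. Mrpl32, Mrpl22, Mrpl57, Mrps34 and Mrpl19 have their lowest point at WT 24 h, Mrps14 has its lowest at KO 24 h and Mrps16 at WT 12 h. For Mrpl40 both KO points lie below both WT points.

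Where a gene had a second probe set, the values did not always match. Mrps16, mutated in a human mitochondrial disease, had the highest genotype difference at 12 h, 0.54, from 5.11 in knockout and 4.57 in wild type, with 4.88 and 4.96 at 24 h. Its second probe set read 5.03 in knockout and 5.08 in wild type at 24 h, and 4.35 and 4.37 at 12 h, which is a difference of -0.02 at 12 h. With time that probe set was past 1.5-fold, higher by 0.68 in knockout and by 0.70 in wild type. The 3 Mrps18 genes are paralogs related to 1 bacterial protein. At 24 h Mrps18a was at 7.07 in knockout and 6.71 in wild type, and at 12 h at 6.82 and 6.95. Mrps18b was at 6.68 in knockout and 6.58 in wild type at 24 h, and at 6.79 and 7.13 at 12 h, so here the wild-type 12 h array was high. It had genotype differences of 0.10 at 24 h and -0.34 at 12 h on one probe set, and of 0.06 and 0.03 on the other. Mrps18c had 0.26 and -0.13 on one, and -0.70 and -0.47 on the other, so its probe sets disagreed in sign at 24 h. The second probe set of Mrpl47 was 0.73 higher in knockout at 24 h, with the first at 0.28. For Mrpl10 the difference at 24 h was 0.22 on one and -0.39 on the other, for Mrpl12 0.16 and 0.12, and for Mrpl36 0.36 and 0.10. For Mrps17 it was -0.04 and 0.42, and for Mrps5 0.19 and -0.16, the last below the level limit. The sign at 24 h thus differed between the probe sets of Mrpl10, Mrps17, Mrps18c and Mrps5. With time, the second probe set of Mrps18c was past 1.5-fold in knockout at -0.60, where 6.31% of all genes were past it. That of Mrps17 was past it in wild type, also at -0.60, where 8.72% of all genes were. The 9 second probe sets taken alone did not show the pattern of the members. At 24 h 5 of the 9 were above 0, with a median of 0.06, and with time in wild type 5 of 9 were above 0, with a median of 0.06, opposite in sign to the members' median of -0.16.

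Subtracting the genotype difference at 12 h from that at 24 h gave a value above 0 for 50 of 70 members, where 49.8% of all genes were, and below 0 for 20, where 50.1% were. The median was 0.15. It was past 1.5-fold for 4 members: Mrpl32 at 1.17 and Mrpl19 at 0.61 were higher (4.7% of all genes), and Mrps14 at -0.64 and Mrps16 at -0.62 lower (5.42% of all genes, and 10.1% in either direction). The second probe set of Mrps16 gave -0.03, and a probe set shared by Mrpl19 and Gcfc2 gave -0.09. In a limma fit of genotype over both times, with time as an added term and 1 residual degree of freedom, 0 members had an adjusted p under 0.05, as did 0% of all genes. At an unadjusted p under 0.05 that fit had 3 members, where 6.52% of all genes passed. They were Mrpl57 at 0.45 ± 0.12, Mrpl32 at 0.96 ± 0.30 and Mrpl40 at -0.33 ± 0.11 (limma estimate ± SE), each with a limma adjusted p of 0.76. For time over both genotypes limma likewise called 0 members (0% of all genes), with a lowest adjusted p of 0.35, and 2 passed unadjusted, Mrpl1 at -0.39 and Mrps10 at -0.37, where 13.2% of all genes did. A genotype difference that changes with time counts as error in this fit. When 1.3-fold was required at each time and with one sign, 0 members were higher in knockout (0.781% of all genes) and 0 lower (1.11%). For time in both genotypes 0 were higher (3.37%) and 0 lower (3.05%).

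Translation and assembly factors of mitochondria were mostly above 0 at 24 h too, with smaller medians than the members. Dap3, Ptcd3 and Gadd45gip1, which encode ribosomal subunits under other symbols, were 0.25, 0.07 and 0.07 higher in knockout at 24 h. Of 18 translation factors, such as elongation and release factors, 14 were above 0 at 24 h, with a median of 0.11, and 11 at 12 h, with a median of 0.02. In both comparisons 0 were past 1.5-fold, where 6.49% of all genes were at 24 h and 2.9% at 12 h. Of 24 assembly factors 17 were above 0 at 24 h, with a median of 0.09, and 0 were past 1.5-fold (6.49% of all genes). The 16 tRNA synthetases of mitochondria were evenly split at 24 h, with 8 above 0 and a median of 0.02, but Yars2 at 0.67 and Mars2 at 0.62 were past 1.5-fold, where 6.49% of all genes were. At 12 h Pars2 was past it at 0.72, as was the transcription termination factor gene Mterf1a at 0.89, where 2.9% of all genes were. Tfb2m, a mitochondrial transcription factor, was at 5.86 in knockout and 5.06 in wild type at 24 h, and at 5.93 and 6.07 in that order at 12 h. For this gene too the wild-type 24 h array was the lowest. It was named from a list of 11 mitochondrial transcription genes as past 1.5-fold at 24 h, where 6.49% of all genes were. A count over that list is not given here. The 8 regulators of mitochondrial biogenesis kept, among them Nrf1, Gabpa and Yy1, were split at 24 h, with 4 above 0 and 4 below.

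Nuclear genes of oxidative phosphorylation had a smaller median at 24 h, 0.07 over 69 genes with 47 above 0, and a time median in wild type of -0.10. None was past 1.5-fold between genotypes, where 6.49% of all genes were at 24 h and 2.9% at 12 h. With time Cox7b, Cox5b and Ndufb11 were past it in knockout (6.31% of all genes) and Cox7b in wild type (8.72%). The 61 cytosolic ribosomal protein genes kept had a median of 0.04 at 24 h and, with time in wild type, of 0.07, opposite in sign to the members. The 10 mitochondrially encoded genes, whose messages this ribosome translates, also lay opposite. All 10 were below 0 at 24 h, with a median of -0.08 and a range from -0.26 to -0.02, and 9 were above 0 at 12 h, with a median of 0.09. With time in wild type all 10 were above 0, with a median of 0.07. The knockout arrays moved as well. Relative to each gene's mean, their medians were 0.05 at 12 h and -0.05 at 24 h, against -0.04 and 0.04 in wild type. The knockout 24 h array was the lowest for 6 of the 10 genes. These genes come from a few long transcripts of 1 genome and are not independent of each other. None of these gaps between groups of genes has a test.

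**Figure D4:**
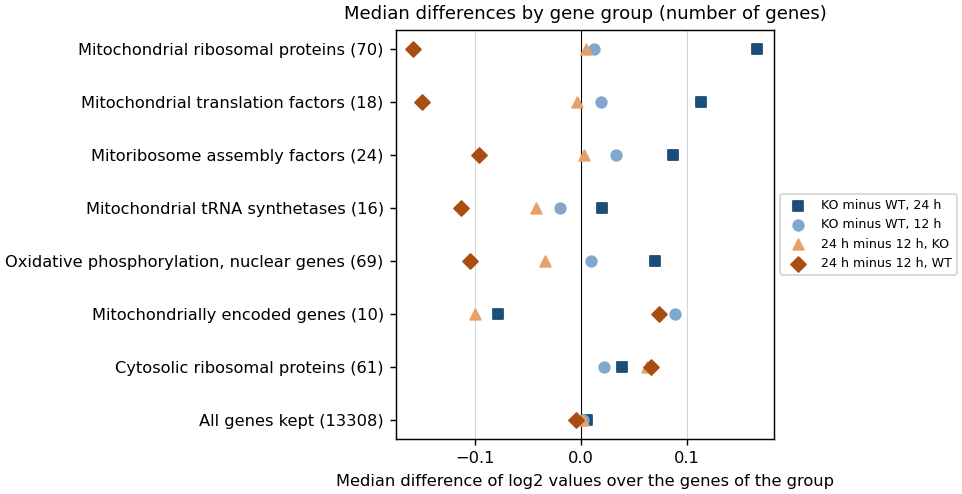
Median difference of log2 values (x axis) for gene groups (rows, number of genes kept in brackets) in the 4 comparisons, squares for KO minus WT at 24 h, circles for KO minus WT at 12 h, triangles for 24 h minus 12 h in KO and diamonds for 24 h minus 12 h in WT. For mitochondrial ribosomal proteins the square is at 0.17 and the diamond at -0.16, and for mitochondrially encoded genes these lie on the opposite sides.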

How the data were processed

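Per the submitters' processing notes the authors ran RMA, in a version not stated, and deposited log2 values for each probe set. Because RMA equalises the distribution of every array, a change common to most transcripts cannot be seen. The scale was read from the values, which ran from 0.627 to 13.21. Annotation and build used by the authors are not given in the sources used here.

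Of 41345 probe sets, 23521 had 1 gene symbol in the platform annotation. All 71 members matched the RefSeq table of GRCm38.p6 under the same symbol. The probe set with the highest mean was taken per gene. Differences were computed per gene, and limma 3.58.1 (R 4.3.3) was fitted over 13308 genes with Benjamini-Hochberg adjustment. Members, roles, motifs and lists were chosen with earlier results of these data known. Cytosolic ribosomal proteins were found by symbol (Rpl, Rps), without pseudogenes. Named members were those past 1.5-fold in a pairwise comparison, the 3 highest and 3 lowest of each, those with several probe sets, the Mrps18 paralogs and those beside the level limit. Others were named by role. Precision is limited by 1 array per group.

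Other settings tried were: median centring; no level limit or one at the 60th percentile; fold rules of 2 and 1.3; averaging all probe sets of a gene; loess on level (span 0.3); quantile normalization; subunits by structure; means for medians; and a trend in limma's prior.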

Additional observations from a re-analysis of the deposited data

Results flagged for a closer look

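Some members had differences of opposite sign in the paired comparisons, with a gap of at least 1.5-fold between them. With 1 array a group the gap was not tested. The genotype difference of Mrpl19 was 0.46 at 24 h and -0.15 at 12 h. That of Mrps16 was -0.0793 at 24 h and 0.54 at 12 h, but -0.05 and -0.02 on its second probe set. That of Mrps14 was -0.63 at 24 h and 0.0025 at 12 h. The 12 h value of Mrps14 was near 0 and its sign was not stable, at -0.0057 after quantile normalization and -0.0007 after loess. The time difference was 0.22 in knockout and -0.39 in wild type for Mrpl19, and 0.71 in knockout and -0.46 in wild type for Mrpl32. For Mrps14 it was -0.49 in knockout and 0.15 in wild type, and for Mrps16 -0.23 in knockout and 0.39 in wild type. On the second probe set of Mrps16 it was 0.68 in knockout and 0.70 in wild type, with no change of sign. The probe set shared by Mrpl19 and Gcfc2 showed none either. Its genotype differences were 0.25 at 24 h and 0.34 at 12 h, and its time differences -0.28 in knockout and -0.19 in wild type. Each gap in time is the same number as the change of the genotype difference, since both use the same 4 arrays once.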

How the results depend on the processing

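The median genotype difference of the members at 24 h stayed between 0.14 and 0.17 over all alternatives run, and the time median in wild type between -0.17 and -0.13. All of these kept to single-symbol probe sets. The 13 probe sets shared with another gene had medians of 0.07 and -0.01 in that order. With a loess on level the 24 h median was 0.14 with 54 of 70 above 0, where 50% of all genes were. Median centring moved the median of all genes by under 0.1. The gap between the subunits stayed within 0.1 of its value in every comparison and alternative. Its sign turned except for time in knockout, where the gap stayed above 0, from 0.01 to 0.05. At 24 h it was -0.03 by medians and 0.03 by means. At 12 h it was 0.02 by medians, -0.01 by means, -0.06 by structure and -0.02 with the limit at the 60th percentile, and with time in wild type -0.02 by medians and 0.02 with that limit or 0.04 with all probe sets averaged. Counts past the fold rule moved with the rule itself. At 1.3-fold 11 members passed at 24 h (17.1% of all genes), 2 at 12 h (9.9%), 3 with time in knockout (16.8%), 8 with time in wild type (20.4%) and 15 for the change of the genotype difference (23.5%). At 2-fold 1 passed at 24 h (0.774% of all genes), 0 with time in knockout (1.13%) and 1 for that change (1.87%). After loess 2 members passed 1.5-fold for that change (9.92% of all genes), against 4 without it (10.1%), and the cause was not tested. Mrpl22 fell under 1.5-fold at 24 h after centring (0.56), quantile normalization (0.58) and loess (0.56). limma called 0 members under each alternative fitted, with 2 to 3 for genotype and 1 to 3 for time at an unadjusted p under 0.05, where 5.55% to 7.52% and 9.54% to 17.7% of all genes passed. Over all genes its time term called 0, but 146 with the limit at the 60th percentile, 45 after centring and 540 with a trend. The medians over all single-symbol member probe sets at or above the level limit, and those without the 3 members past 1.5-fold, were chosen after seeing the data. No replicate block could be fitted, as each group has 1 array, but the limma fit compares the genotypes within each time through its time term.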

Other observations

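A further 13 probe sets list a mitochondrial ribosomal gene together with another gene and were not counted among the members. They hold the only probe sets here of Mrpl30, Mrpl33, Mrpl41, Mrpl43, Mrpl44, Mrpl53 and Mrps6. Others of them list a member as well, among them Mrpl19 with Gcfc2 and Mrps34 with Nme3. At 24 h 9 of the 13 were above 0, with a median genotype difference of 0.07 and none past 1.5-fold. With time in wild type 7 of 13 were below 0, with a median of -0.01. The probe set shared by Mrpl41 and Dph7 had a genotype difference of -0.25 at 24 h and of 0.56 at 12 h. The one shared by Mrps6 and Slc5a3 was at 7.28 in knockout and 7.19 in wild type at 24 h, and at 6.85 and 7.14 in that order at 12 h.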
